A study of Drosophila melanogaster with 18 samples.

Results

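Photoreceptor nuclei from old flies and from young flies under strong blue light were compared with each other here, gene by gene, rather than each with its own untreated control. The 3 D30 libraries came from untreated flies at day 30. The 3 libraries after 8 h blue light came from flies of day 5 that were frozen after 8 h of exposure. These 6 samples are part of 18, the others being untreated D5 and D15 flies and D5 flies after 3 h or 5 h of blue light, with 3 samples each. All flies were male, carried the white-eyed cn bw background and expressed a GFP tag fused to a KASH domain (Rh1-GFP-KASH), which sits in the outer nuclear membrane. The ninaE (Rh1) regulatory elements drive this tag in the outer photoreceptors R1–R6, and a single transgene line was used, whose insertion next to Catalase raises that gene in every group. Each sample is a pool of many flies, from which tagged nuclei were isolated for sequencing of nuclear RNA depleted of ribosomal RNA. The comparison asks in which genes the aged state and the long light exposure differ, and 9427 of the 17811 features could be tested.

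R1–R6 cells are the motion and dim-light photoreceptors of the compound eye. Light isomerises Rhodopsin 1, a Gq protein then activates the phospholipase C encoded by norpA, and the TRP and TRPL channels open and let calcium in. Strong blue light keeps this cascade active and loads the cell with calcium and with oxidised lipids, while aging photoreceptors gradually lose visual function.

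The groups also differed in their libraries. Read pairs counted on genes, in units of 1e6 pairs, ranged from 11.4 to 15.05 at D30 and from 18.1 to 19.9 at 8 h, and these made up 24.5 to 26.3% of all pairs at D30 against 42.7 to 44.3% at 8 h. The 2 groups were sequenced on different flow cells, so the flow cell and the group cannot be told apart in any result below. Correlations of log2 levels over the tested genes were 0.963 to 0.981 among D30 libraries, 0.983 to 0.989 among 8 h libraries and 0.919 to 0.960 between the groups. Summed levels of 10 R1–R6 markers overlapped, at 45978 to 86186 cpm (counts scaled to library size, as described with the processing) at D30 against 63690 to 68091 cpm at 8 h. The summed level of 8 muscle markers was 3129 to 8116 cpm at D30 against 1528 to 2167 cpm at 8 h, and of 8 fat body markers 1074 to 2019 cpm against 607 to 1047 cpm. Glial markers (10 genes) summed to 476 to 779 cpm at D30 against 396 to 469 cpm at 8 h, while those of other neurons (12 genes) and hemocytes (8 genes) overlapped between the groups. For sums that did not overlap the exact two-sided permutation test gave p = 0.1, the smallest that 3 against 3 samples allow. The part of these differences in the results below was not tested, and fewer cells of a type cannot be told apart from less RNA per cell.

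Across all genes, 707 of 9427 (7.5%) differed between D30 and 8 h blue light in edgeR's quasi-likelihood test at an adjusted p under 0.05. Of these, 434 (4.6% of genes tested) were higher at D30 and 273 (2.9%) were lower. The median log2 fold change was 1.26 among genes higher at D30 and −0.98 among genes lower at D30, against 0.04 over all genes tested. Changes beyond 4-fold were seen in 67 genes higher and 16 genes lower at D30. All 3 D30 libraries lay above all 3 of 8 h in 354 of the 434 genes, and below them in 239 of the 273. Among all genes tested, 24.2% were separated in the first way and 21.8% in the other. An unadjusted p under 0.05 in the same edgeR test was reached by 2220 of the 9427 genes. Counts of genes called, separated or below this unadjusted p in lists and classes below are to be read beside the values over all genes given here.

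**Figure D1:**
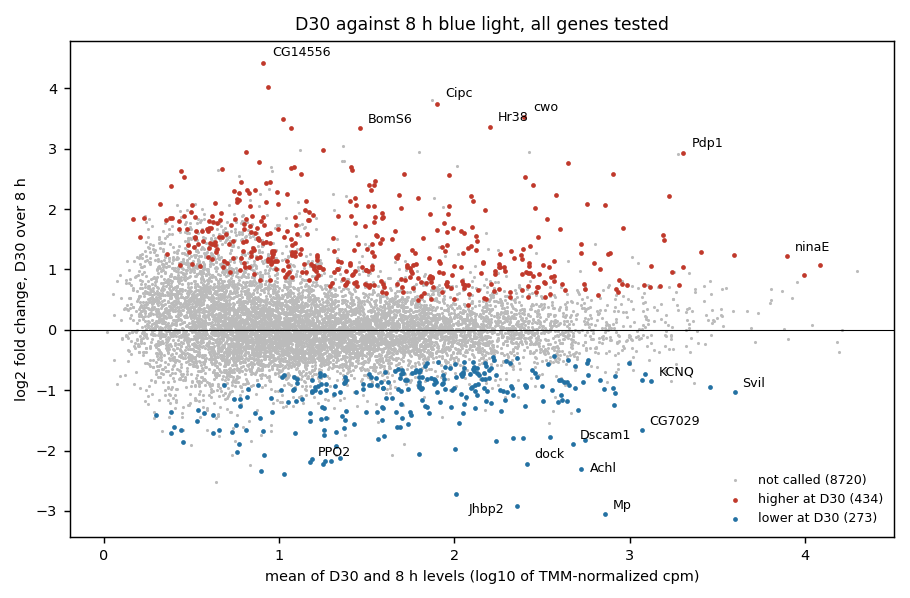
Each point is 1 of the 9427 genes tested, with its mean level over both groups (log10 of normalized cpm) on the x axis and the fitted log2 fold change of D30 over 8 h on the y axis. Red points (434) were higher and blue points (273) lower at D30 at an adjusted p under 0.05, and grey points did not pass. Named genes reach 4.42 for CG14556 and −3.05 for Mp.

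The number of genes depended strongly on single libraries. Without D30 replicate 3 the fit called 3441 genes and without D30 replicate 1 it called 1288, whereas it called 451 without 8 h replicate 1 and 333 without 8 h replicate 2. Of the 707 genes, 242 were called in each of the 6 fits that left out 1 library of either group, 129 of them higher and 113 lower at D30. A call below that is not said to hold without any single library may have been lost in 1 or more of these fits. A fit without the 2 correction factors, which absorb differences between replicates and of which the second did not overlap between the groups, called 2436 genes. It kept 520 of the 707, all in the same direction. Counts below from the fit without factors are to be read beside its 1585 genes higher and 851 lower among all 9427.

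The largest decrease at D30 relative to 8 h was that of a matrix gene. Mp (FBgn0260660, chromosome 3L 6998843 to 7053499 in annotation BDGP6.54), which encodes a secreted collagen of the type XV/XVIII family, had 138, 191 and 206 cpm at D30 against 1771, 1169 and 887 cpm after 8 h blue light. The D30 libraries lay close to untreated D5 (112 ± 18.9 cpm, SD, n = 3), and it was the 8 h libraries that stood apart. The fitted log2 fold change of Mp was −3.05 (SE 0.31, adjusted p 0.000152). dock, an SH2/SH3 adaptor that guides photoreceptor axons, had 79.4, 102 and 81.6 cpm at D30 against 432, 459 and 404 cpm at 8 h (log2 fold change −2.22, SE 0.33, adjusted p 0.00128). Achl had 68.7, 91.7 and 129 cpm at D30 against 825, 909 and 1139 cpm at 8 h (log2 fold change −2.30, SE 0.45, adjusted p 0.0072). Both dock and Achl were chosen among genes without overlap between the groups, and each was called in all of the alternatives tried.

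Jhbp2, of the juvenile hormone-binding protein family, averaged 48.8 ± 10.3 cpm at D30 and 406 ± 98.4 cpm at 8 h (log2 fold change −2.91, SE 0.51). GlcAT-S, a glucuronyltransferase, averaged 36.1 ± 3.05 cpm at D30 and 167 ± 34.2 cpm at 8 h (−2.71, SE 0.42). ru, which encodes the rhomboid protease that releases EGF receptor ligands in the eye, averaged 8.22 ± 1.06 cpm at D30 and 28.3 ± 7.51 cpm at 8 h (−2.18, SE 0.48). These 3 genes were lower at D30 in each fit that left out a library. PPO2, a prophenoloxidase of crystal cells, was lower at D30 as well (9.16 ± 5.03 against 20.9 ± 1.16 cpm, log2 fold change −2.19, SE 0.30), and so was PPO1 (4.24 ± 0.455 against 10.4 ± 2.25 cpm, −1.38, SE 0.39, named after its values were seen), though PPO1 lost its call in 4 of the 6 fits without 1 library. CG13300 (−2.17, SE 0.29), CG42709 (−2.14, SE 0.18) and CG13708 (−2.39, SE 0.50) completed the protein-coding genes of this kind, and CG13708 lost its call without D30 replicate 3. Small RNAs of the nucleus also appeared among the largest decreases, with snoRNA:Psi28S-3327a at 1.21, 1.32 and 3.96 cpm at D30 against 16.4, 18.1 and 6.20 cpm at 8 h (−2.35, SE 0.67, adjusted p 0.0461). For snRNA:U2:38ABa, one of several near-identical U2 copies among which reads may be split, the log2 fold change was −2.23 (SE 0.61, adjusted p 0.0394). Both small RNAs lost their calls in 3 of the 6 fits without 1 library.

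Abundant genes that were lower at D30 all lay highest after blue light. Svil, which encodes the actin-binding protein Supervillin, averaged 2283 ± 384 cpm at D30 and 5659.7 ± 381 cpm at 8 h (log2 fold change −1.03, SE 0.20, adjusted p 0.00677), against 2909 ± 295 cpm in untreated D5. CG7029 averaged 578 ± 47.3 cpm at D30 and 1781 ± 310.1 cpm at 8 h (−1.67, SE 0.24, adjusted p 0.00098). CG42795 averaged 1643 ± 370.0 cpm at D30 and 4108 ± 269 cpm at 8 h (−0.95, SE 0.24), and CG33144 averaged 836 ± 164 cpm at D30 and 1596 ± 40.6 cpm at 8 h (−0.73, SE 0.20). KCNQ, described with the channels, was the fifth gene of this set.

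Some of the genes higher at D30 were far below their untreated young level after blue light. Hr38 (FBgn0014859, chromosome 2L 20683462 to 20714588), a nuclear receptor of the NR4A family that is induced by activity in neurons, had 209, 290.4 and 377 cpm at D30 against 19.9, 38.8 and 28.3 cpm after 8 h blue light. Untreated D5 averaged 228 ± 76.0 cpm, so the 8 h libraries were low and the D30 libraries were near the young level. The log2 fold change was 3.37 (SE 0.53, adjusted p 0.00189). sr, which encodes an early growth response (EGR) family zinc finger protein, had 49.8, 63.1 and 67.8 cpm at D30 against 18.6, 16.4 and 15.8 cpm at 8 h (1.85, SE 0.21, adjusted p 0.000404), with 91.6 ± 12.6 cpm in untreated D5. Both genes were called in all 20 alternatives. The list of stress signalling and cell death genes to which they belong held 3 genes higher and 1 lower at D30 among 34 tested, with a median log2 fold change of 0.12. The third was egr, the fly tumor necrosis factor ligand, at 14.9 ± 4.43 cpm at D30 and 3.43 ± 0.277 cpm at 8 h (1.31, SE 0.33). upd3, an interleukin-6-like cytokine, was the one that was lower at D30, at 3.37, 4.63 and 4.32 cpm against 10.1, 8.03 and 8.33 cpm at 8 h (−1.66, SE 0.29, adjusted p 0.00334). Its level in untreated D5 was 2.36 ± 0.570 cpm, below both groups.

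Some of the largest increases at D30 were in poorly expressed genes. The pseudogene CR43086 averaged 19.1 ± 1.8 cpm at D30 and 1.85 ± 0.247 cpm at 8 h (log2 fold change 3.49, SE 0.38), and 0.976 ± 0.229 cpm in untreated D5. Scp1, a calcium-binding protein, averaged 21.0 ± 8.05 cpm at D30 and 2.19 ± 0.627 cpm at 8 h (3.35, SE 0.48). The noncoding lncRNA:CR44951 averaged 12.2 ± 4.27 cpm at D30 and 0.755 ± 0.0258 cpm at 8 h (2.94, SE 0.58). In these 3 genes the D30 libraries lay above those of 8 h and of untreated D5 alike, and each was called without any single library.

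**Figure D2:**
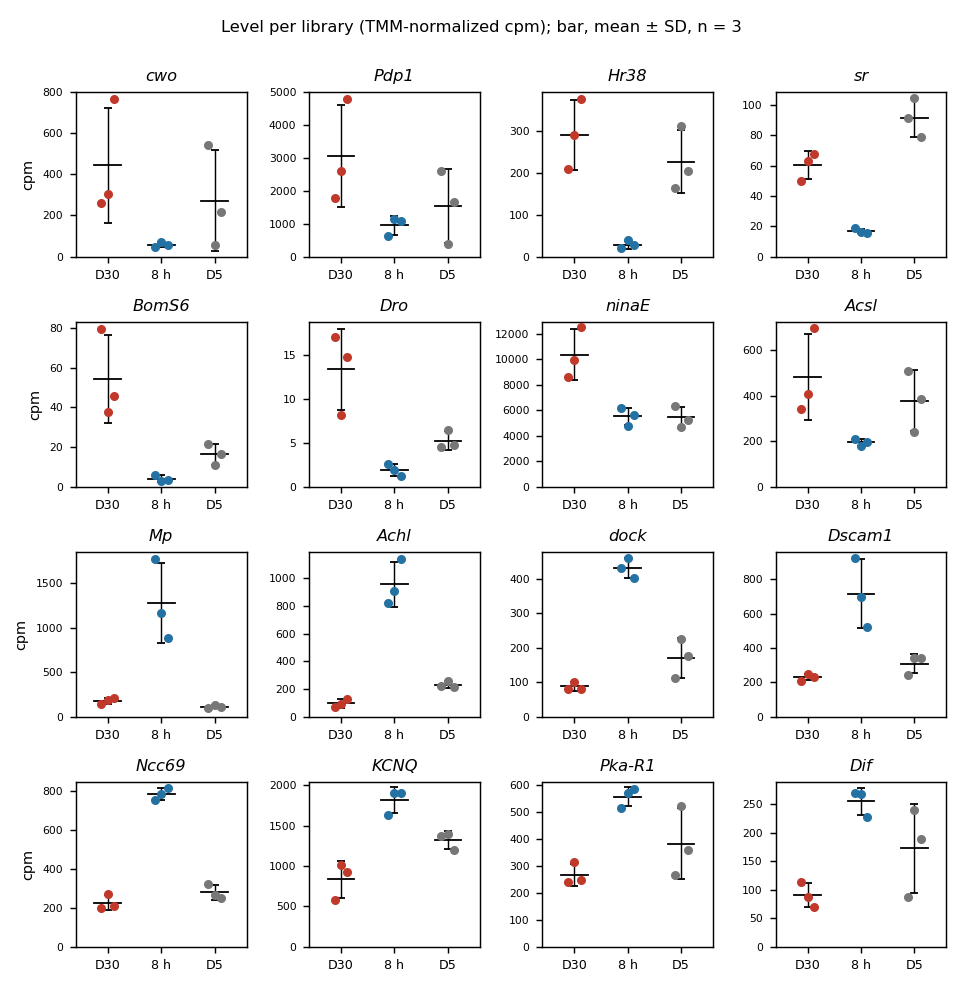
Each panel plots the normalized cpm of 1 gene in the 3 libraries of D30 (red), 8 h blue light (blue) and untreated D5 (grey), with the mean and SD as bars. Mp, Achl, dock, Dscam1 and Ncc69 are highest at 8 h and Hr38 and sr lowest at 8 h, whereas ninaE is highest at D30 (8585 to 12526 cpm). The D30 libraries also lie below those of untreated D5 in Achl, dock and sr, and above them in Mp.

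Clock genes were called in a number that depended on the fit. In the fly clock, Clk and its partner cyc switch on per, tim, vri, Pdp1 and cwo, and PER, TIM, VRI and CWO in turn repress this activation. Of 16 clock genes tested, 5 were higher and 1 was lower at D30, with a median log2 fold change of 0.67. Without factors 4 were higher and 2 lower, and with no filter on low counts 0 were higher and 1 lower. cwo had 259, 305 and 763 cpm at D30 against 49.0, 70.1 and 56.4 cpm at 8 h (log2 fold change 3.53, SE 0.82, adjusted p 0.0184). Pdp1 had 1781, 2595 and 4798 cpm at D30 against 627, 1158 and 1071 cpm at 8 h (2.93, SE 0.66, adjusted p 0.0151). vri had 506, 634 and 931 cpm at D30 against 68.3, 316 and 202 cpm at 8 h (2.76, SE 0.75, adjusted p 0.0363). The libraries of the groups did not overlap in these 3 genes, but they varied widely within a group.

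The kinase genes dco (0.89, SE 0.20) and nmo (0.97, SE 0.20) were also higher at D30, and the clock output gene to, which encodes a carrier of small lipophilic ligands, was lower (3.68 ± 0.556 cpm at D30 against 12 ± 0.024 cpm at 8 h, −1.45, SE 0.38). vri, dco and nmo were named after their values were seen. tim was at 1317, 2059 and 4501 cpm at D30 against 404, 1800.2 and 1304 cpm at 8 h, with a log2 fold change of 2.91 that did not pass the test (SE 1.10, adjusted p 0.12). per (1.43, SE 0.62, adjusted p 0.176) did not pass either. Clk, whose transcript runs opposite to them in the daily cycle, was at 166 ± 63.1 cpm at D30 and 526 ± 37.6 cpm at 8 h (−1.54, SE 0.58, adjusted p 0.122). Of the 6 clock genes called, 0 were called in each of the 6 fits without 1 library. The 3 untreated D5 libraries spanned a wide range in the same genes, from 55.8 to 539 cpm for cwo and from 174 to 5708 cpm for tim. Flies were exposed to blue light in the light part of the cycle, and the clock time at which the untreated flies were frozen is not given in the sources used here, so time of day and group cannot be told apart.

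Among called genes without overlap between the groups, the 3 with the largest increase lie next to each other on chromosome 3R. Cipc (26106868 to 26130674, plus strand), whose mammalian counterpart binds and inhibits CLOCK, had 74.7, 101 and 243 cpm at D30 against 19.6, 21.2 and 15.7 cpm at 8 h (log2 fold change 3.74, SE 0.93, adjusted p 0.0251). CG14556 (26126659 to 26127868) lies within Cipc on the same strand, so that reads of the pair may not be separable, and had 7.85, 5.58 and 31.1 cpm at D30 against 1.18, 1.18 and 1.93 cpm at 8 h (4.42, SE 1.24, adjusted p 0.043). CG6142 starts 2480 bases past the end of Cipc and had 9.01, 19.9 and 18.1 cpm at D30 against 1.78, 1.63 and 1.51 cpm at 8 h (4.03, SE 0.86, adjusted p 0.0122). CG6142 was called without any single library, whereas Cipc lost its call without D30 replicate 3 and without 8 h replicates 2 or 3. CG14556 lost its call without D30 replicate 3, without any one of the 3 libraries of 8 h and without factors, and was called in 11 of 19 alternatives. The lowest log2 fold changes over the alternatives were 1.71 for Cipc and 1.48 for CG14556.

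Immune genes differed in both directions. Flies defend themselves through the Toll pathway, which acts through the NF-κB protein Dif and induces the short Bomanin peptides, and through the Imd pathway, which acts through Relish (Rel). Of 50 immunity genes tested, 10 were higher and 2 were lower at D30, with a median log2 fold change of 0.66. BomS6 had 79.3, 37.7 and 45.5 cpm at D30 against 6.08, 2.81 and 3.39 cpm at 8 h (3.34, SE 0.49, adjusted p 0.00116). Dro, the antimicrobial peptide Drosocin, had 17.1, 8.23 and 14.8 cpm at D30 against 2.64, 1.85 and 1.20 cpm at 8 h (2.78, SE 0.61, adjusted p 0.0135). The groups did not overlap in either gene, and untreated D5 lay between them, at 16.3 ± 5.28 cpm for BomS6 and 5.27 ± 1.07 cpm for Dro. The other Bomanins called were BomS2, BomS3, BomS5, BomBc2 and BomBc3, with log2 fold changes of 1.44 to 2.32. These genes are clustered, similar copies, so reads may be split among them. Listericin (1.83, SE 0.48), Rel (1.31, SE 0.36) and Tep3 (0.80, SE 0.21) were higher at D30 too.

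Dif itself went the other way, with 113, 88.0 and 70.3 cpm at D30 against 269, 268 and 228 cpm at 8 h (log2 fold change −1.84, SE 0.42, adjusted p 0.0168), and so did PGRP-LA, which encodes a peptidoglycan recognition protein (117 ± 18.2 against 259.9 ± 11.5 cpm, −1.02, SE 0.29). SPH93, a serine protease homolog outside the list, was far higher at D30, at 62.2, 30.5 and 10.7 cpm against 1.29, 1.46 and 0.573 cpm at 8 h (2.98, SE 0.73, adjusted p 0.0241). D30 replicate 1 had the highest level of each Bomanin, of Dro and of SPH93. The calls of BomS3, BomS6, BomBc2, BomBc3, Dro and Dif held without any single library, and those of SPH93 did not. The fat body, which makes most of these peptides, had marker sums that did not overlap between the groups, as given above, and their part in this result was not tested.

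Among phototransduction genes, 4 of 31 were higher and none was lower at D30 in edgeR's test. The other fits called 0 to 10 of them lower. An unadjusted p under 0.05 in edgeR's test was reached by 16 of the 31, against 2220 of all 9427 genes tested. ninaE (FBgn0002940, chromosome 3R 19886255 to 19888206), which encodes Rhodopsin 1, had 8585, 9913 and 12526 cpm at D30 against 6157, 4777 and 5584 cpm at 8 h (log2 fold change 1.22, SE 0.20, adjusted p 0.00233). Its D30 libraries lay above those of 8 h and above untreated D5 (5431 ± 836 cpm). The other 3 genes overlapped between the groups before the factors were fitted. norpA had 8035, 15528 and 16686 cpm at D30 against 10055, 11224 and 11815 cpm at 8 h (1.08, SE 0.24). Galphaq, the G protein alpha subunit activated by Rhodopsin 1, had 167, 351 and 325 cpm at D30 against 201, 204 and 189 cpm at 8 h (1.24, SE 0.29). rdgA, the diacylglycerol kinase of the cascade, had 5842, 10711 and 14253 cpm at D30 against 8836, 9787 and 10193 cpm at 8 h (0.91, SE 0.25), and was at −0.03 without D30 replicate 3. In each of these 3 genes D30 replicate 1 lay below all 8 h libraries and the other D30 libraries lay above them.

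The direction of the whole cascade was therefore not settled. The median of the 31 genes was 0.23 with 2 factors and −0.17 with no factors, where 2 genes were higher and 5 were lower at D30. Before the factors were fitted, 10 of the 31 had all D30 libraries below all 8 h libraries and 4 had them above. Over all genes tested these shares were 21.8% and 24.2%. The nuclear tag itself, GFP, was at 97.2, 173 and 255 cpm at D30 against 96.5, 83.9 and 52.7 cpm at 8 h (1.70, SE 0.44, adjusted p 0.0292). Cat, which the insertion raises in every group, was at 2539, 4472 and 4009 cpm at D30 against 2597, 3049 and 3603 cpm at 8 h and did not pass the test (0.68, SE 0.38, adjusted p 0.301). Among 5 markers of R7 and R8 cells, 2 had a log2 fold change above 0 and the median was −0.12. The R7 opsin gene Rh4 was the one called, higher at D30 (209 ± 84.0 against 82.0 ± 6.05 cpm, 1.12, SE 0.32), and it lost this call without any one of the 3 libraries of 8 h. Among 6 markers of cone and pigment cells, 4 had a log2 fold change above 0 and the median was 0.32. Crys, a lens crystallin, was the one called, lower at D30 against the direction of its list (−1.62, SE 0.31), with libraries that overlapped and a call that was lost without D30 replicate 3. Without factors 3 of these 6 markers were higher and 0 lower. Slob, which encodes a protein that binds the Slowpoke potassium channel (1.24, SE 0.34), and PsGEF, a guanine nucleotide exchange factor (1.28, SE 0.21), were the remaining abundant genes higher at D30, and both overlapped between the groups before adjustment.

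Ion transport genes were called in both directions. Of 41 channel and membrane potential genes, 2 were higher and 6 were lower, 20 had a log2 fold change above 0 and the median was −0.02. Ncc69, a sodium-potassium-chloride cotransporter, had 199, 273 and 209.8 cpm at D30 against 755, 783 and 815 cpm at 8 h (−1.32, SE 0.24, adjusted p 0.00505). kcc, which exports potassium with chloride, had 187, 255 and 276 cpm at D30 against 623, 568 and 511 cpm at 8 h (−0.84, SE 0.21, adjusted p 0.0244). KCNQ, a voltage-gated potassium channel, had 578, 1007 and 923 cpm at D30 against 1632, 1905 and 1904 cpm at 8 h (−0.84, SE 0.18, adjusted p 0.0109). Each of these 3 was clearly separated between the groups. Untreated D5 lay between them for kcc and KCNQ, whereas for Ncc69 it overlapped D30 (249 to 324 cpm).

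na, the sodium leak channel that sets the resting potential of clock neurons, was at 92.2 ± 6.10 cpm at D30 and 213 ± 21.6 cpm at 8 h (log2 fold change −1.18, SE 0.19), and its partner subunit unc80 was also lower at D30 (−0.92, SE 0.25), as was the sodium channel gene NaCP60E (−0.87, SE 0.21). Higher at D30 were Ca-alpha1D, an L-type calcium channel, with 1337, 2264 and 2374 cpm at D30 against 978, 1123 and 1311 cpm at 8 h (1.49, SE 0.21, adjusted p 0.000996), and nrv2, a beta subunit of the sodium pump (105 ± 4.07 against 57.7 ± 6.38 cpm, 0.95, SE 0.19). KCNQ, Ncc69, na, Ca-alpha1D and nrv2 were called without any single library. kcc was not called without 8 h replicate 1 or without 8 h replicate 2, and NaCP60E without D30 replicate 2 or either of these libraries. unc80 lost its call in 5 of the 6 fits without 1 library and was called in 6 of 20 alternatives.

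Transmitter genes passed the test in small numbers. Photoreceptors signal with histamine, which the hydrolase encoded by t releases from carcinine for reuse. t had 143, 209.8 and 260.0 cpm at D30 against 510.4, 587 and 677 cpm at 8 h (log2 fold change −0.84, SE 0.22, adjusted p 0.0297). In the list of 12 histamine and amine genes, AANAT1, an N-acetyltransferase of amines (27.8 ± 6.94 against 37.7 ± 4.20 cpm, −0.73, SE 0.18), and Gad1, which makes GABA in other neurons (32.8 ± 7.99 against 45.8 ± 12.6 cpm, −0.97, SE 0.24), were called as well, with libraries that overlapped. Of 43 transmitter receptor genes 3 were lower, namely the acetylcholine receptor subunits nAChRbeta1 (−1.16, SE 0.28) and nAChRalpha7 (−0.92, SE 0.23) and the dopamine and ecdysteroid receptor gene DopEcR (−0.55, SE 0.15). DopEcR was at 496, 679 and 869.8 cpm at D30 against 1178, 1327 and 1367 cpm at 8 h, with no overlap between the groups. Of the 3 amine and 3 receptor genes, 0 were called in each fit without 1 library. Without factors 4 receptor genes were higher and 2 lower, with a median of 0.21 against −0.22. Among 31 genes of the synaptic vesicle cycle, nSyb (0.67, SE 0.15) and Cadps (0.73, SE 0.21) were higher and Amph (−0.74, SE 0.20) was lower at D30. Here too 0 of the 3 calls held in each fit without 1 library, and the log2 fold change of Cadps was −0.01 without D30 replicate 3. Without factors 1 vesicle gene was higher and 8 were lower, and the median of the list, 0.07, changed sign in 13 of 20 alternatives. All D30 libraries lay below all 8 h libraries in 14 of the 31 genes and above them in 2. Over all genes tested these shares were 21.8% and 24.2%.

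Axon guidance and adhesion genes moved one way among those called, with 11 of 102 lower and 0 higher at D30. The median of the list was −0.13, and a fit without factors called 15 higher and 11 lower with a median of 0.15. Dscam1, a receptor of the immunoglobulin family that binds dock, had 211, 248 and 234 cpm at D30 against 926, 698 and 525 cpm at 8 h (log2 fold change −1.89, SE 0.23, adjusted p 0.000473). Ten-m, a teneurin of synaptic partner matching, had 218, 139 and 143 cpm at D30 against 359, 346 and 317 cpm at 8 h (−1.26, SE 0.21, adjusted p 0.003). sli, the ligand of Roundabout receptors (−0.96, SE 0.17), and Fas2, a homophilic adhesion protein (−0.90, SE 0.19), were further examples, named after their values were seen. These 4 genes did not overlap between the groups and held without any single library. Untreated D5 had 309.6 ± 55.6 cpm of Dscam1 and 97.8 ± 11.4 cpm of Fas2, near D30, but 305 ± 37.3 cpm of Ten-m, near 8 h.

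The list of cyclic AMP and light response regulators showed a similar balance, with 5 of 19 lower and 1 higher at D30. Its median log2 fold change was −0.25, and 0.04 without factors. Pka-R1, the regulatory subunit that holds protein kinase A inactive, had 240.3, 314 and 248 cpm at D30 against 517, 571 and 585 cpm at 8 h (−1.16, SE 0.28, adjusted p 0.0239). The adenylyl cyclase genes Ac78C (22.4 ± 4.35 against 49.8 ± 10.9 cpm, −1.37, SE 0.24) and Ac76E (54.5 ± 6.65 against 77.0 ± 7.62 cpm, −0.97, SE 0.16) were lower at D30 as well. These 3 were called without any single library. The phosphodiesterase genes Pde11 (−0.73, SE 0.21) and Pde6 (−0.66, SE 0.17) were lower, and dnc, the phosphodiesterase of learning mutants, was higher (0.83, SE 0.19), though its libraries overlapped.

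**Figure D3:**
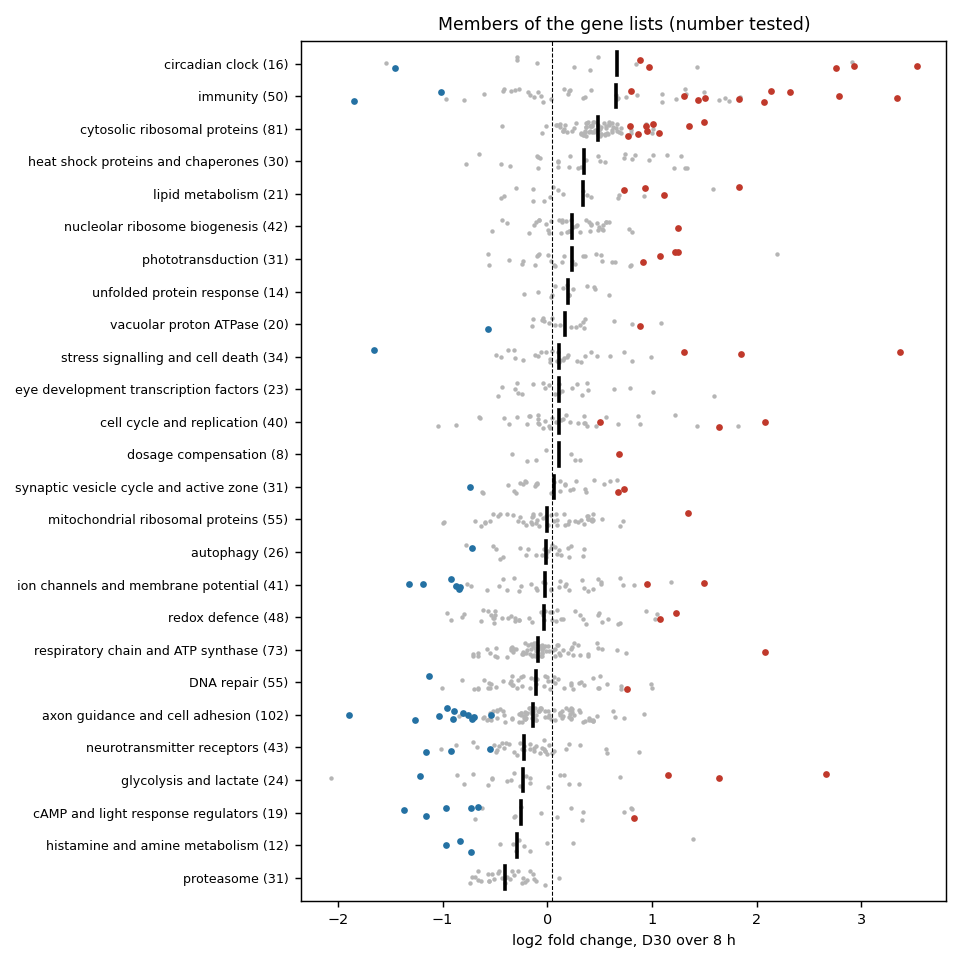
Each row is 1 of 26 gene lists with the number of genes tested, each point a member at its log2 fold change of D30 over 8 h, and the black bar the median. Red and blue points were higher or lower at D30 at an adjusted p under 0.05, and the dashed line marks the median of all genes tested (0.04). The list medians run from −0.40 for the proteasome to 0.67 for the circadian clock.

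Cytosolic ribosomal protein genes were higher at D30 as a group of small differences. Of 81 tested, 9 were higher and 0 lower, 78 had a log2 fold change above 0 and the median was 0.48. In 63 of the 81 all D30 libraries lay above all 8 h libraries, and in 0 below, against 24.2% and 21.8% of all genes tested. RpL41 had 72.7, 50.3 and 56.3 cpm at D30 against 25.9, 15.4 and 11.0 cpm at 8 h (1.5, SE 0.35, adjusted p 0.0191). RpL35 had 104, 61.4 and 77.9 cpm at D30 against 36.3, 34.97 and 36.0 cpm at 8 h (1.07, SE 0.22, adjusted p 0.00943, named after its values were seen). RpS5b, a variant best known from the germline, was at 5.38 ± 1.45 cpm at D30 and 2.53 ± 0.669 cpm at 8 h (1.36, SE 0.38). The list kept its direction in all 20 alternatives, with medians of 0.46 to 0.92 and 3 to 74 members called higher.

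Proteasome subunit genes had the opposite sign, with 30 of 31 below 0 and a median of −0.40. In edgeR's test 0 were called, and the other fits called 0 to 9 of them lower. Of the 31, 8 were below an unadjusted p of 0.05 in edgeR's test, against 2220 of all 9427 genes tested. The nearest to the threshold was Rpn2, at 75.8, 70.7 and 58.7 cpm at D30 against 88.5, 95.5 and 94.4 cpm at 8 h (−0.56, SE 0.17, adjusted p 0.0597). In 15 of the 31 genes all D30 libraries lay below all 8 h libraries and in 0 above, against 21.8% and 24.2% of all genes tested. The median stayed between −0.51 and −0.21 in all alternatives.

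Of 24 genes of sugar transport, glycolysis and lactate, 3 were higher and 1 was lower at D30, with a median log2 fold change of −0.23 that was 0.16 without factors. The trehalose transporter gene Tret1-1 had 179.7, 113 and 202 cpm at D30 against 58.0, 52.4 and 52.3 cpm at 8 h (log2 fold change 1.64, SE 0.30, adjusted p 0.00488). Tret1-2 was at 7.91 ± 1.88 cpm at D30 and 1.53 ± 0.740 cpm at 8 h (2.66, SE 0.49), and the hexokinase gene Hex-C was higher too (1.15, SE 0.26). Gpdh1, which makes glycerol 3-phosphate, had 108, 82.2 and 94.7 cpm at D30 against 244, 213 and 225 cpm at 8 h (−1.22, SE 0.21, adjusted p 0.00326). The remaining 20 genes did not pass. Ldh, lactate dehydrogenase, was among them at 18.8, 15.8 and 27.4 cpm at D30 against 84.2, 64.4 and 53.5 cpm at 8 h (−2.07, SE 0.67, adjusted p 0.0762), with both groups above untreated D5 (4.01 to 6.95 cpm).

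Of 21 lipid genes, 4 were higher and 0 lower at D30, with a median of 0.34. Acsl, a long-chain acyl-CoA synthetase, had 339, 409 and 698 cpm at D30 against 210.0, 179 and 194 cpm at 8 h (1.83, SE 0.31, adjusted p 0.00316). bgm, another acyl-CoA synthetase, had 54.3, 34.3 and 29.5 cpm at D30 against 11.0, 11.96 and 10.9 cpm at 8 h (1.11, SE 0.24, adjusted p 0.013). Desat1, the acyl-CoA desaturase (0.94, SE 0.25), and Cyt-b5-r (0.73, SE 0.17) were the others. In all 4 the groups did not overlap and the 8 h libraries lay below the mean of untreated D5. Among 48 redox defence genes, Gclm, the modifier subunit of glutathione synthesis (65.0 ± 7.36 against 41.8 ± 12.2 cpm, 1.08, SE 0.23), and the peroxiredoxin gene Prx6c (9.77 ± 0.282 against 3.97 ± 1.13 cpm, 1.23, SE 0.29) were higher at D30, and the median of −0.03 turned positive without factors (0.29).

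The number of DNA repair and cell cycle genes called depended on the fit, as did the number over all genes. With 2 factors 3.64% of repair genes and 7.5% of cell cycle genes were called, against 7.5% of all genes tested. Fits with 0 and 1 factor called 2436 and 3657 of all 9427 genes tested. Of 55 repair genes 1 was higher and 1 lower at D30, against 9 and 5 with 0 factors and 11 and 13 with 1 factor. Ku80, which binds broken DNA ends, had 7.16, 6.83 and 6.61 cpm at D30 against 11.3, 11.3 and 11.0 cpm at 8 h (−1.13, SE 0.31, adjusted p 0.0367), both above untreated D5 (4.77 ± 0.592 cpm). Parp1 was higher in the fit (0.76, SE 0.20) with overlapping libraries. Ku80 and Parp1 each lost their call in 5 of the 6 fits without 1 library. Of 40 cell cycle genes 3 were higher and 0 lower, against 9 and 0 with 0 factors and 12 and 1 with 1 factor. The 3 genes were CycA (3.39 ± 0.258 against 0.770 ± 0.145 cpm, 2.08, SE 0.40), RnrS, a subunit of ribonucleotide reductase (6.09 ± 0.419 against 1.18 ± 0.484 cpm, 1.64, SE 0.43), and Dp (0.50, SE 0.14), of which CycA was called without any single library. The study itself singled out 18 genes tested here, most of them from comparisons with untreated D5. It gave some as shared by 8 h and D30, some as particular to 1 of these and some as shared by D15 and D30. Of the 18, 4 were called in the direct comparison, Pka-R1, KCNQ, kcc and AANAT1, all lower at D30. The other 14 had log2 fold changes of −0.67 to 0.68 and adjusted p of 0.196 or more. These included the break repair gene rad50 (38.5 ± 2.02 against 28.5 ± 1.06 cpm, 0.32, SE 0.17), Gabat (20.2 ± 0.940 against 22.5 ± 4.37 cpm, −0.23, SE 0.24), Vps33B (5.59 ± 1.34 against 8.39 ± 0.344 cpm, −0.62, SE 0.37) and ATPsynB (26.4 ± 8.18 against 30.2 ± 4.03 cpm, −0.49, SE 0.25).

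In the remaining lists few genes passed. Of 73 respiratory chain genes, 25 had a log2 fold change above 0 and the median was −0.08. UQCR-11L was the one called, higher at D30 (2.08, SE 0.45), with libraries that overlapped and a fold change of 0.30 that did not pass without D30 replicate 3. With the filter of 10 cpm in every library 0 of 42 respiratory genes were higher and 10 lower. Single genes were also higher at D30 among 55 mitochondrial ribosomal proteins (mRpS18B, 1.34, SE 0.36), 42 nucleolar genes (pit, 1.25, SE 0.23) and 8 dosage compensation genes (Clamp, 0.69, SE 0.17). The parkin gene park was the 1 of 26 autophagy genes called, lower at D30 (13 ± 1.84 against 21.4 ± 0.829 cpm, −0.72, SE 0.19). In the vacuolar proton pump VhaM9.7-b was higher (0.88, SE 0.20) and Vha100-1 lower (−0.57, SE 0.15) among 20. For 30 chaperone genes, 14 genes of the unfolded protein response and 23 eye transcription factors edgeR called 0. Before adjustment 2, 0 and 5 of these genes were below 0.05, against 2220 of all 9427 genes tested. In the other fits up to 12, 3 and 8 genes of these lists were higher and up to 3 of each list were lower. Calr, nearest to the threshold in the unfolded protein response, was at 88.2 ± 18.5 cpm at D30 and 67.4 ± 2.57 cpm at 8 h (0.24, SE 0.16, adjusted p 0.384).

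By class of gene, protein-coding genes made up 8776 of the genes tested, of which 393 were higher and 255 lower at D30. Noncoding RNA genes had a positive median log2 fold change of 0.37, with 33 of 468 higher and 10 lower. Small nucleolar RNAs ran the other way, with a median of −0.90 over 67 genes, 0 higher and 4 lower. These 4 were snoRNA:Psi28S-3327a, snoRNA:Psi28S-3436a (−1.69, SE 0.40), snoRNA:Psi28S-3436b (−1.62, SE 0.41) and scaRNA:MeU5-C46 (−0.93, SE 0.26), the last 3 named after their values were seen, and the copies of Psi28S-3436 may share reads. Small nuclear and nucleolar RNAs together took 0.241 to 0.438% of counts at D30 and 0.248 to 0.692% at 8 h. These shares overlapped (exact two-sided permutation test, p = 0.3), and untreated D5 had 0.597 to 1.10%. Of 11 mitochondrially encoded genes, 3 were higher and 0 lower. mt:ND1, a subunit of complex I, had 141, 61.6 and 75.1 cpm at D30 against 11.1, 7.69 and 11.9 cpm at 8 h (2.58, SE 0.52, adjusted p 0.00813), and the cytochrome oxidase genes mt:CoI (1.67, SE 0.47) and mt:CoII (1.19, SE 0.31) followed. Mitochondrial genes took 0.134 to 0.323% of counts at D30 against 0.0418 to 0.0897% at 8 h, in nuclei that should hold none of them. Genes in the longest of 4 bins of genomic span (over 7405 bases) were called in 12.2% of cases, against 5.51% in the shortest bin. The bins between had 4.31% and 7.9%. By mean level, 3.22% were called in the lowest of 4 bins and 13.4% in the highest. The part of level in the difference by span was not tested.

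Untreated D5 gave a common point of reference for both groups, although the same D5 libraries served for both. Among the 434 genes higher at D30, the D5 mean lay between the groups in 320 (73.7%), and among the 273 genes lower at D30 in 180 (65.9%). In the genes higher at D30 the median log2 fold change against D5 was 0.60 for D30 and −0.68 for 8 h. In the genes lower at D30 it was −0.38 for D30 and 0.59 for 8 h. All these genes were chosen for a difference between D30 and 8 h in the same fit. That choice favours opposite signs against D5 and a D5 mean between the groups. The share of all genes tested with the D5 mean between the groups was not computed. The D5 mean was nearer to D30 than to 8 h in 52.8% of the genes higher and 60.4% of the genes lower at D30, against 61.9% of all genes tested. Single genes stood away from D5 mainly in 1 group, ninaE at D30 and Mp and Hr38 at 8 h.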

How the data were processed

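Nuclear RNA from tagged photoreceptor nuclei was sequenced as read pairs. The authors deposited whole-number counts of read pairs per gene, made after trimming with Trimmomatic, alignment with HISAT2 to build BDGP6.28 and counting with HTSeq (version 0.11.1 in the submitters' processing notes). The strand setting is not given in the sources used here, so antisense and overlapping genes may share reads. Summary entries for uncounted pairs were left out of library sizes and tests.

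Levels are given in cpm (the count of a gene scaled to a library of a fixed size), on library sizes normalized by the trimmed mean of M values (TMM). Features with more than 10 counts in every one of 18 libraries were kept. Fold changes came from the quasi-likelihood test of edgeR 4.0.16 (R 4.3.3) with 6 group means and 2 factors of unwanted variation estimated from replicates, so they can differ from ratios of the mean cpm. Values of p were adjusted by Benjamini-Hochberg over all 9427 features tested, with 0.05 as threshold. Names and positions came from annotation BDGP6.54, which held 17710 of the 17811 features. The labels give only a number for each replicate. The study describes them as biological replicates, each from many flies, so p-values measure the spread between these samples. On simulated counts with 9290 genes, 10% of changes of 0.5, 70.8% of changes of 1 and 95.7% of changes of 2 (log2) were recovered. Of the unchanged genes 9 were called. The simulated counts held no unwanted variation and no factor that differed between the groups. They therefore do not measure recovery in these data, where the second factor did not overlap between the groups.

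Named genes were, among called genes with a mean of at least 1 cpm, the 12 with the largest change in each direction, the 5 most abundant in each direction and 2 per list in each direction, besides genes the study singled out. The 12 were taken only from genes whose D30 libraries all lay on 1 side of all 8 h libraries. For genes named only by this rule, the lack of overlap follows from that choice. Larger changes with overlapping libraries, if any, were passed over. Others were named after their values were seen. The members and lists were chosen with earlier results of these data known. Alternatives were other numbers of factors, filters and normalizations, DESeq2 1.42.0, the 6 samples alone, a replicate block and leaving out each library. One more, without replicate 1 of 5 h blue light, was chosen after seeing the data. Uncalled fold changes are values only.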

Additional observations from a re-analysis of the deposited data

Results flagged for a closer look

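The following values lie outside the gene comparison and were higher at D30 than at 8 h, without a test of what they contribute. Read pairs aligned to several places made up 26.0% on average in D30 libraries against 7.15% in 8 h libraries, and these pairs are not counted on any gene. Read pairs that did not align made up 19.2% at D30 against 12.3% at 8 h. For each of these shares the exact two-sided permutation test gave p = 0.1, the smallest possible with 3 against 3 samples.

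A further 615 features were left out of the test although they had more than 10 counts in every D30 library and at most 10 in every 8 h library, whereas 16 features showed the reverse. Of the 615, 435 were protein coding and 161 were noncoding RNAs. Together they had 1158, 1629 and 952 cpm at D30 against 182, 133 and 152 cpm at 8 h, a gap that follows from how they were selected. In untreated D5 the sum was 462, 621 and 276 cpm, and in D15 it was 977, 487 and 717 cpm. After 3 h blue light it was 1171, 738 and 913 cpm, and after 5 h it was 926, 302 and 196 cpm.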

How the results depend on the processing

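The number of genes called depended on the factors, the filter and single libraries. With 0 factors 2436 genes were called (1585 higher and 851 lower at D30), and with 1 factor 3657 (2154 and 1503). The 6 samples alone gave 2653 with 0 factors (1647 and 1006) and 1412 with 2 factors (827 and 585). Requiring over 10 cpm in every library gave 1073 (562 higher, 511 lower), and no filter gave 1061 (570 and 491). Over 1 cpm in at least 3 samples gave 208 higher and 289 lower, so that 41.9% of calls were higher at D30 against 61.4%. Leaving out 1 library of either group gave 333 to 3441 genes in all, 197 to 2090 higher and 136 to 1351 lower. Without replicate 1 of 5 h blue light, an alternative chosen after seeing the data, 845 genes were called. Replicate numbers did not pair the samples (correlations of same-numbered deviations 0.17, 0.09 and −0.07 before the factors, and −0.21, −0.00 and −0.23 after the factors, which are themselves fitted on differences between replicates). A fit with the replicate block and 2 factors called 615 (335 and 280), of which 402 were among the 707, and the replicate block with 0 factors called 2485 (1619 and 866). The log2 fold change of Cat, which was not called, was −0.018 with the filter of 1 cpm in 3 samples, −0.10 with no filter and −0.16 with the replicate block and 2 factors. Without 1 library of either group rdgA ranged from −0.030 (without D30 replicate 3) to 0.94 and Cadps from −0.0055 (without D30 replicate 3) to 0.80. Over 134 called genes and 20 alternatives, 2157 of 2634 values kept their direction and their call, 475 kept the direction only and 2 changed sign. The causes were not tested.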

Other observations

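Purine synthesis and one-carbon metabolism formed a group not described above, from a list composed after the values were seen and therefore without a test of its own. Of 22 such genes tested, 13 were higher and 0 lower at D30, with a median log2 fold change of 1.39. Gart, which encodes a trifunctional enzyme of purine synthesis, had 234, 116 and 130.4 cpm at D30 against 31.7, 23.6 and 27.2 cpm at 8 h (log2 fold change 2.04, SE 0.23, adjusted p 0.000276). Gnmt, which consumes S-adenosylmethionine, had 121, 61.3 and 69.0 cpm at D30 against 15.7, 10.8 and 12.4 cpm at 8 h (2.23, SE 0.30). Both were called without any single library, and D30 replicate 1 was the highest in both. Prat2 (−0.01) and Sam-S (−0.22) were among the genes that did not pass.

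Actin regulators, likewise listed after the values were seen, lay the other way. Of 31 tested, 9 were lower and 0 higher at D30, with a median of −0.39. IRSp53, a membrane-bending adaptor, had 266, 284 and 217 cpm at D30 against 688, 913 and 975 cpm at 8 h (−1.82, SE 0.22, adjusted p 0.000439). Akap200, a scaffold of protein kinase A that also binds actin, had 131, 115.3 and 129 cpm at D30 against 447, 366 and 292 cpm at 8 h (−1.79, SE 0.24). Both held without any single library, and untreated D5 lay nearer to D30, at 223 cpm for IRSp53 and 74.4 cpm for Akap200.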
